A study of Mus musculus with 12 samples.

Results

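The 34 genes described here make, sense, take up, move and export sterols in mouse embryonic fibroblasts. They were taken as a list by name: every non-control probe whose gene name in the scanner files was one of the 34 symbols or an older name of it (Sc4mol for Msmo1) was found, and the probe with the highest mean stood for its gene. The list was found whole, on 63 probes, of which 61 passed the filter on dim probes, among 20836 genes tested. By role it holds 8 enzymes of the mevalonate steps, 11 enzymes from squalene to cholesterol, 5 genes of the SREBP sensor system, 5 genes of uptake and movement inside the cell, and 5 genes of the LXR and efflux side.

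The study measured total RNA on 1-colour Agilent arrays from fibroblasts of E12.5 embryos on a C57Bl/6 background. Cells were wild type (WT) or homozygous for the GR-C3 knockin, in which the start codons of the other translational isoforms of the glucocorticoid receptor gene were mutated, so that the mutant exon encodes GR-C3 alone. Each genotype was kept for 6 h with vehicle or with the synthetic glucocorticoid dexamethasone (Dex) at 100 nM, with 3 arrays labelled as biological replicates in each of the 4 groups. The knockin goes back to 1 ES cell clone, and the labels do not say which replicates came from which embryo, so p-values here speak only of the spread among these cultures, which may be technical. The comparisons ask how Dex changed these genes in each genotype, whether the changes differed, and how the genotypes differed under vehicle and under Dex. The differences share groups: the WT Dex arrays, for example, enter the Dex change of WT cells and the genotype difference under Dex.

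Cholesterol is built from acetyl-CoA through mevalonate, farnesyl pyrophosphate, squalene and lanosterol. When sterols in the endoplasmic reticulum run low, SCAP carries the SREBP precursors to the Golgi, where they are cut into active transcription factors that raise the synthesis enzymes; INSIG proteins hold SCAP back when sterols are plentiful. Oxysterols, among them the 25-hydroxycholesterol made by Ch25h, bind INSIG and also activate the LXR receptors, which raise the efflux pumps Abca1 and Abcg1 and the ubiquitin ligase Mylip.

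Nuclear SREBP works on promoters together with NF-Y, which binds CCAAT boxes, so the stretches before the start site are shown for 3 enzymes that were higher in GR-C3 cells under Dex, for Insig1, and for Ch25h, the gene of the list that moved most with Dex. They are the 250 bases before the start in the RefSeq table of build GRCm38.p6, read 5′ to 3′ on the gene's strand, with CCAAT (or its reverse ATTGG) and the SREBP site core TCACNCCA, on either strand, in capitals.
Hmgcs1, chr13:119690101-119690350, plus strand: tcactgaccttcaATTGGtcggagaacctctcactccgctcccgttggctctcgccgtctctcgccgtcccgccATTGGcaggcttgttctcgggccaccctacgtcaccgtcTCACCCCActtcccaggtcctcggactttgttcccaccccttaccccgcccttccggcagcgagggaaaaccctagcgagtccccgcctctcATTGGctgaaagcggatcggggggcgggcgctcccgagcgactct
Msmo1, chr8:64733579-64733828, minus strand: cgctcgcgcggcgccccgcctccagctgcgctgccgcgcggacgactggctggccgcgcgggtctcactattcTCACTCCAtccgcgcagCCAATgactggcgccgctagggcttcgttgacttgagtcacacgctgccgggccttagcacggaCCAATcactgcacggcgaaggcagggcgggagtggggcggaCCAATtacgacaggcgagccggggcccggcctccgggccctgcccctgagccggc
Idi1, chr13:8885356-8885605, plus strand: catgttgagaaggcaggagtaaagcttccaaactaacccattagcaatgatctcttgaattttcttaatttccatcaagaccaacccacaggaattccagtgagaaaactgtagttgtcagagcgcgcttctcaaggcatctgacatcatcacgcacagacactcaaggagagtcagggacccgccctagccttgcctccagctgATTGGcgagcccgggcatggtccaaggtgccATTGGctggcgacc
Insig1, chr5:28071162-28071411, plus strand: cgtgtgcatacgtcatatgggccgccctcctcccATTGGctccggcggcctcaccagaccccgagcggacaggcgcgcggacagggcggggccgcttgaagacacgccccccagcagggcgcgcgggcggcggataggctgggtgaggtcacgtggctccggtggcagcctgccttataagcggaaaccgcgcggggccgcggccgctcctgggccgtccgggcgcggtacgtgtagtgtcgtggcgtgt
Ch25h, chr19:34475149-34475398, minus strand: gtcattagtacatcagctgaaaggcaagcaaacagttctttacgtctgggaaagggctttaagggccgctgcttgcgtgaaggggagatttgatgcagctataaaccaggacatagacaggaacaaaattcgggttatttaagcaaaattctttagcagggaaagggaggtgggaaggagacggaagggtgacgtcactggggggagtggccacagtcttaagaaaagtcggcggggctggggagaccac
The Hmgcs1 and Msmo1 stretches each hold 3 CCAAT boxes and 1 SREBP core, Idi1 holds 2 CCAAT boxes, Insig1 holds 1, and the Ch25h stretch holds neither. In the windows of 300 bases that run to 50 bases past the start, 27 of the 34 genes had an entry. CCAAT stood in the window of 21 of these 27 genes (77.8%) and of 15 of the 16 synthesis enzymes with an entry, against 41.1% of all 27025 symbols in the table. The GC box GGGCGG stood in 22 of the 27 (81.5%), against 38.2% of all symbols. The core TCACNCCA, a motif added after looking at these windows, was in Hmgcs1, Msmo1 and Srebf2, against 4.97% of all symbols. None of the 27 windows held the full SREBP site, the glucocorticoid receptor site or the LXR site searched, which stood in 0.27%, 0.537% and 0.0148% of all symbols. The core TCACNCCA lies inside the full SREBP site, so these counts are not independent, and a match or its absence describes only the letters of the window.

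All 34 chosen probes were well above background on all 12 arrays, and none was saturated. All 7 fibroblast markers (Col1a1, Col1a2, Col3a1, Pdgfra, Thy1, Vim and Fn1) were above background on every array. Of 19 markers of other cell types, 10 were also above background on all 12 arrays (Krt8, Krt18, Ptprc, Cd68, Kdr, Afp, Fabp4, Plin1, Tubb3 and Rbfox3), and Cdh1, Cdh5 and Ttr were on none. No leukocyte, adipocyte or neuron marker was below it on every array. One array stood apart: on the array labelled WT vehicle replicate 1, the glucocorticoid-induced gene Fkbp5 had a level of 1.51, against -2.64 and -2.74 on the other vehicle arrays and 1.89 to 2.15 on the WT Dex arrays. Tsc22d3 and Per1, also glucocorticoid-induced, lay at 5.31 and 1.66 there, against 1.99 to 2.18 and -0.46 to -0.39 on the other vehicle arrays. Levels throughout are log2 of the processed signal minus the 75th percentile of that array. For 84.2% of the genes past the threshold for Dex in WT without this array, it lay nearer to the WT Dex mean than to the mean of the other vehicle arrays. This held for 62% of all genes and for 20 of the 34 sterol genes (58.8%), about the share of all genes. For 11 of the 34, among them Cyp51, Msmo1, Tm7sf2 and Mylip, its value lay outside the range of all 11 other arrays. The share of all genes with such a value was not counted, so this describes the array and not the sterol genes. That array was also alone on its slide. Results are therefore given for 11 arrays, without it, and for all 12.

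Dex lowered Ch25h in both genotypes and more in WT cells, lowered Abcg1, Idi1 and Insig1 in WT cells and raised Scap and Nr1h3 there. With 11 arrays, 6 of the 34 genes (2 higher, 4 lower) passed a limma adjusted p of 0.05 in WT cells, where 12.2% of all genes passed (5.38% higher, 6.85% lower). In GR-C3 cells 1 of the 34 passed, Ch25h, where 3.47% of all genes passed. The difference between the Dex changes passed for Ch25h, 1 of the 34, where 1.14% of all genes passed. The median Dex change over the 34 was -0.02 in WT and 0.07 in GR-C3 cells, beside 0.02 and -0.01 over all genes. With all 12 arrays none of the 34 passed in any of these comparisons, where 0.12%, 0.101% and 0% of all genes passed; at an unadjusted p under 0.05 there were 3472, 2466 and 1282 genes over the whole array.

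**Figure D1:**
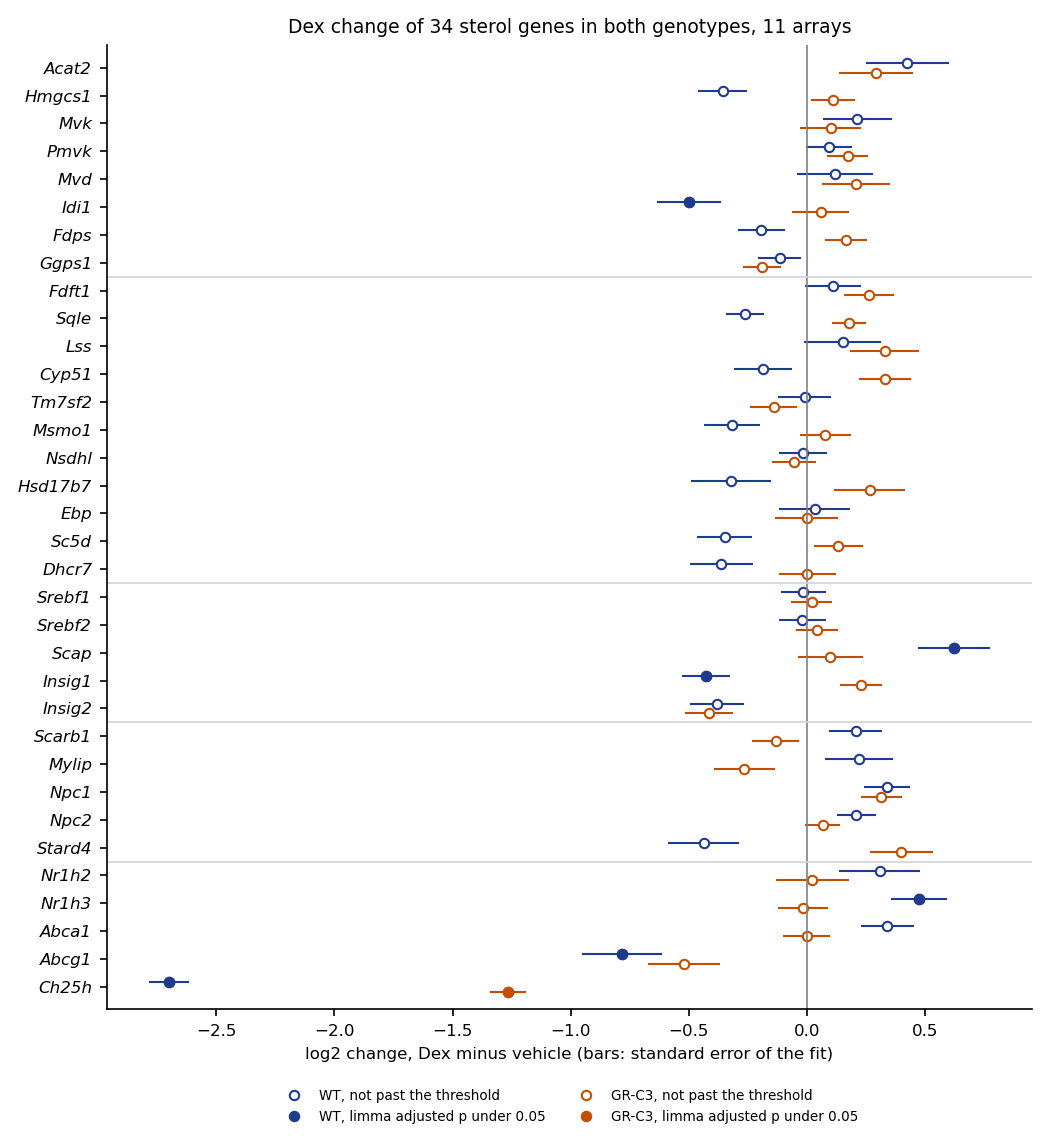
Log2 change with Dex (x axis) of the 34 sterol genes (y axis, grouped by role) in WT cells (blue) and GR-C3 cells (orange), 11 arrays, with standard errors of the fit; filled circles passed a limma adjusted p of 0.05. Ch25h lies farthest left in both genotypes, at -2.7 and -1.27, and most of the other genes lie within 0.5 of 0.

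The WT calls other than Ch25h changed when further arrays were left out. Leaving out WT vehicle replicate 2 left Ch25h alone past the threshold, and leaving out WT vehicle replicate 3 left Ch25h and Abcg1, where 4.62% and 4.97% of all genes passed. Without WT vehicle replicate 1, each of these fits, here and below, sets 1 WT vehicle array against the other groups and assumes that it varies as they do, so a call lost there does not show a smaller change. Leaving out WT Dex replicate 2 gave 10 of the 34 past the threshold and leaving out WT Dex replicate 3 gave 3, where 12.8% and 9.34% of all genes passed. In GR-C3 cells the count rose to 3 without WT Dex replicate 2 (with Insig2 and Npc1) or 3 (with Insig2 and Abcg1), where 4.54% and 3.28% of all genes passed, and for the difference to 4 without WT Dex replicate 1 (with Idi1, Insig1 and Nr1h3), where 5.68% passed. With slide as a term in the fit, Ch25h alone passed in WT, in GR-C3 and for the difference, where 4.89%, 1.52% and 0.173% of all genes passed. The slides bear on every comparison. Slide 2 held WT vehicle 2 and 3 with WT Dex 1. Slide 3 held WT Dex 2 and 3 with GR-C3 vehicle 1 and 2. Slide 4 held GR-C3 vehicle 3 with all GR-C3 Dex arrays. With slide in the fit the WT change therefore comes from slide 2, with 1 WT Dex array, and the GR-C3 change from slide 4, with 1 vehicle array, and the other arrays help to give the spread. A genotype difference with slide in the fit is indirect. It joins GR-C3 vehicle against WT Dex on slide 3 to a Dex change. Under vehicle this is the WT change from slide 2, and under Dex the GR-C3 change from slide 4.

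Ch25h, which makes 25-hydroxycholesterol, read -1.04, 1.26 and 1.24 on the WT vehicle arrays and -1.47, -1.37 and -1.51 on the WT Dex arrays. In the knockin cells it read 1.11, 1.19 and 1.19 on the GR-C3 vehicle arrays and -0.04, -0.1 and -0.18 on the GR-C3 Dex arrays. Apart from WT vehicle replicate 1, which lay near the WT Dex arrays, the vehicle arrays of both genotypes lay close together, all Dex arrays lay below them, and the GR-C3 Dex arrays lay between the other groups. Without WT vehicle replicate 1 the change was -2.7 ± 0.09 (SE) in WT cells (limma adjusted p = 1.3e-07), a 6.5-fold lower level. In GR-C3 cells it was -1.27 ± 0.08 (limma adjusted p = 2.6e-05), a 2.4-fold lower level. The fall was smaller in GR-C3 cells by 1.43 ± 0.11 (limma adjusted p = 0.00060 for the difference). Ch25h differed between genotypes by -0.09 ± 0.09 under vehicle (limma adjusted p = 0.47) and by 1.35 ± 0.08 under Dex (limma adjusted p = 1.5e-06). In the fit with slide, which takes the WT change from slide 2 and the GR-C3 change from slide 4, the changes were -2.72 ± 0.11 and -1.29 ± 0.11 (limma adjusted p = 5.4e-05 and 0.0033); fits within these slides are the same comparison. With all 12 arrays the values were -1.94 ± 0.47 in WT cells, -1.27 ± 0.47 in GR-C3 cells and 0.67 ± 0.67 for their difference, with limma adjusted p = 0.12, 0.35 and 0.92. The Ch25h probe lies at chr19:34175232-34175291 on the minus strand in build mm7, as the scanner files give it.

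**Figure D2:**
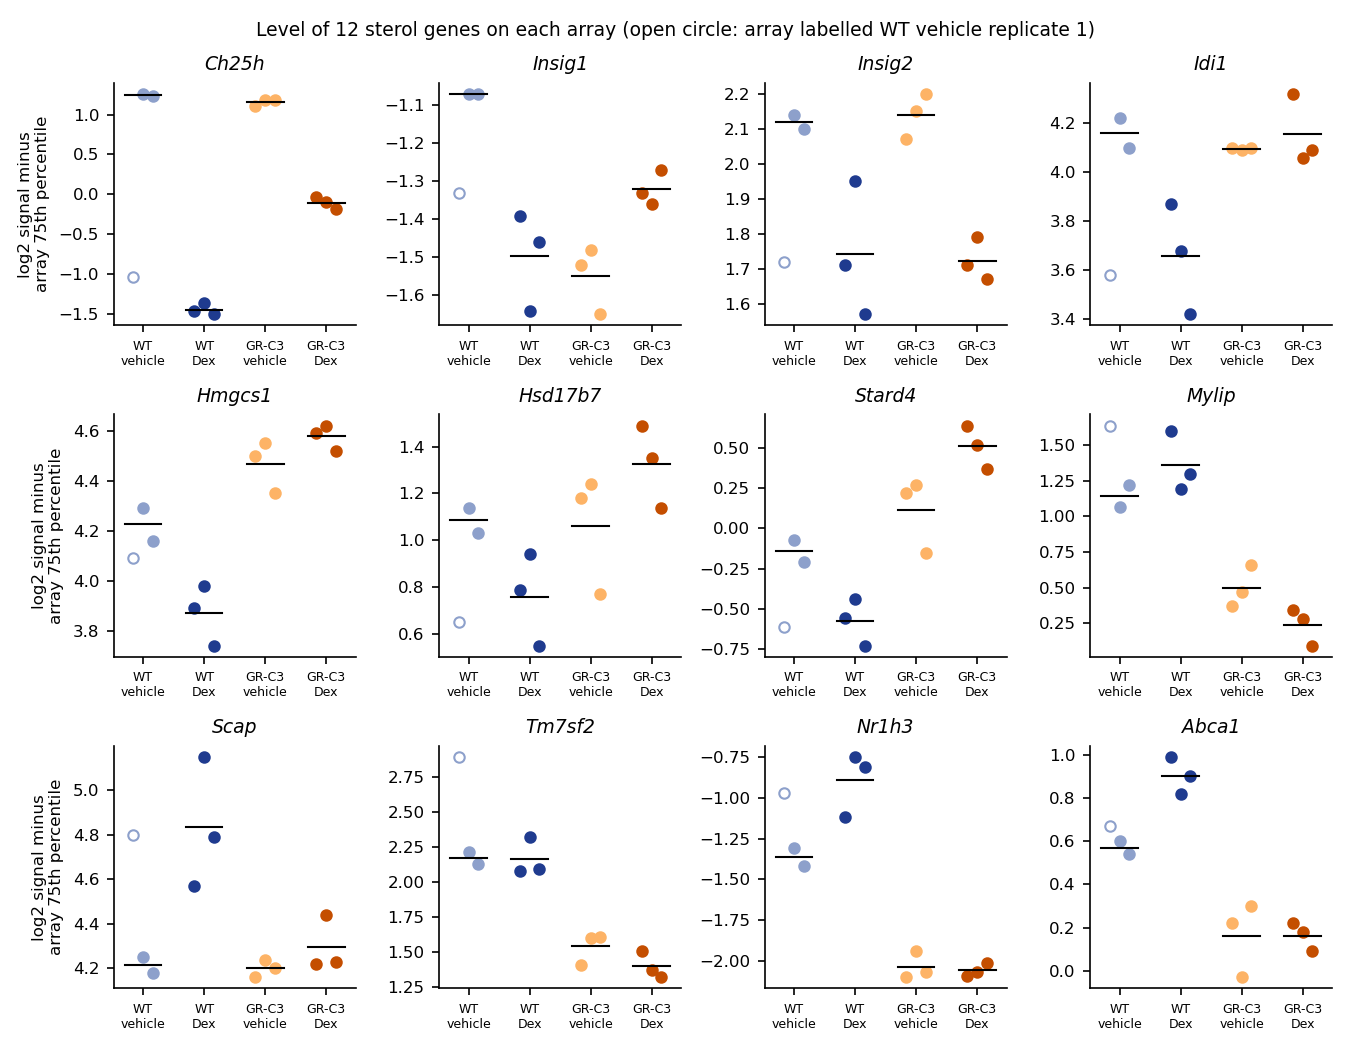
Level of 12 of the sterol genes on each array (y axis, log2 signal minus the array's 75th percentile; scales differ between panels) in the 4 groups (x axis); lines are group means, drawn without the open circle, the array labelled WT vehicle replicate 1. Ch25h falls with Dex in both genotypes, and Nr1h3, Abca1 and Mylip are lower in GR-C3 cells under both treatments.

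Nr1h3 encodes LXRα. It read -0.97, -1.31 and -1.42 on the WT vehicle arrays and -1.12, -0.75 and -0.81 on the WT Dex arrays. In GR-C3 cells it was -2.1, -1.94 and -2.07 on the GR-C3 vehicle arrays and -2.09, -2.07 and -2.01 on the GR-C3 Dex arrays. All 6 GR-C3 arrays lay below all 6 WT arrays. Nr1h3 rose with Dex in WT cells by 0.47 ± 0.12 (limma adjusted p = 0.030; 0.34 ± 0.14 and 0.25 with 12 arrays), and the GR-C3 change was -0.02 ± 0.11, with a difference of -0.49 ± 0.16 that did not pass (limma adjusted p = 0.20). That WT rise was lost with slide as a term, at 0.25 ± 0.11 (limma adjusted p = 0.35). The call was also lost without GR-C3 Dex replicate 2, WT Dex replicate 2 or WT Dex replicate 3. The changes were then 0.47, 0.40 and 0.43 (limma adjusted p = 0.0517, 0.0568 and 0.0774). With WT vehicle replicate 2 or 3 also left out, which leaves 1 WT vehicle array, the changes were 0.53 and 0.42. Between genotypes Nr1h3 was lower in GR-C3 cells by 0.67 under vehicle and 1.16 under Dex; the differences were -0.67 ± 0.12 and -1.16 ± 0.11, with limma adjusted p = 0.0028 and 2.9e-05. Both stayed past the threshold with slide as a term, at -0.99 ± 0.15 and -1.22 ± 0.14 (limma adjusted p = 0.0089 and 0.0023). Nr1h2, which encodes LXRβ, was 1.23, 0.93 and 0.93 on the WT vehicle arrays and 0.95, 1.3 and 1.47 on the WT Dex arrays. On the knockin arrays Nr1h2 was 1.06, 0.96 and 1.03 on the GR-C3 vehicle arrays and 1.33, 0.94 and 0.84 on the GR-C3 Dex arrays. It passed the test in none of the 5 comparisons, with values on 11 arrays from -0.29 to 0.31.

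Abca1 and Abcg1, LXR targets that export cholesterol, gave Dex changes of opposite sign in WT cells. Abca1 was 0.67, 0.6 and 0.54 on the WT vehicle arrays and 0.99, 0.82 and 0.9 on the WT Dex arrays, and 0.22, -0.03 and 0.3 on the GR-C3 vehicle arrays and 0.22, 0.18 and 0.09 on the GR-C3 Dex arrays. The GR-C3 arrays all lay below the WT arrays, and the WT Dex arrays were the highest. Its Dex change was 0.34 ± 0.11 in WT (limma adjusted p = 0.079) and -0.0019 ± 0.1 in GR-C3 cells, neither past the threshold. The genotype difference was -0.4 ± 0.11 under vehicle and -0.75 ± 0.1 under Dex (limma adjusted p = 0.024 and 0.00034); with slide as a term the first was -0.34 ± 0.17 and did not pass (0.28), and the second was -0.91 ± 0.16 and passed (0.011). Leaving out GR-C3 vehicle replicate 2, WT vehicle replicate 2 or WT vehicle replicate 3 also removed the vehicle call, with differences of -0.31, -0.37 and -0.43 (limma adjusted p = 0.0736, 0.14 and 0.104). Abcg1 was -2.14, -1.52 and -1.82 on the WT vehicle arrays and -2.24, -2.32 and -2.8 on the WT Dex arrays, and -1.75, -1.69 and -1.94 on the GR-C3 vehicle arrays and -2.39, -2.3 and -2.25 on the GR-C3 Dex arrays. The Dex arrays lay below the vehicle arrays in both genotypes. The Dex change was -0.78 ± 0.17 in WT cells (limma adjusted p = 0.015; -0.63 ± 0.18 and 0.15 with 12 arrays) and -0.52 ± 0.15 in GR-C3 cells (limma adjusted p = 0.11), with a difference of 0.26 ± 0.23 (limma adjusted p = 0.63). In WT cells the call was lost without WT vehicle replicate 2 (-0.63, limma adjusted p = 0.16) and with slide as a term (-0.57 ± 0.21, 0.22).

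Among the SREBP genes, the factors themselves passed in no comparison on their chosen probes. Srebf1 was 3.93, 3.65 and 3.61 on the WT vehicle arrays and 3.48, 3.7 and 3.67 on the WT Dex arrays, and 3.6, 3.71 and 3.68 on the GR-C3 vehicle arrays and 3.77, 3.65 and 3.63 on the GR-C3 Dex arrays. Srebf2 was 4.1, 4.0 and 3.97 on the WT vehicle arrays and 3.89, 4.12 and 3.87 on the WT Dex arrays, and 3.89, 4.05 and 4.0 on the GR-C3 vehicle arrays and 4.0, 4.05 and 4.0 on the GR-C3 Dex arrays. On these probes the groups of both genes overlapped. With 11 arrays Srebf1 gave values from -0.02 to 0.07 and Srebf2 from -0.02 to 0.06 over the 5 comparisons, none past the threshold. A Srebf2 probe for another record read 0.22, 0.17 and 0.22 on the WT vehicle arrays and 0.17, 0.18 and 0.31 on the WT Dex arrays. It read 0.37, 0.37 and 0.5 on the GR-C3 vehicle arrays and 0.71, 0.58 and 0.4 on the GR-C3 Dex arrays. Every GR-C3 array lay above every WT array there. On the remaining Srebf2 probes the genotypes overlapped under Dex. Scap, the escort that senses cholesterol, was 4.8, 4.25 and 4.18 on the WT vehicle arrays and 4.57, 5.15 and 4.79 on the WT Dex arrays, and 4.16, 4.24 and 4.2 on the GR-C3 vehicle arrays and 4.22, 4.44 and 4.23 on the GR-C3 Dex arrays. The WT Dex arrays were higher than every GR-C3 array, and WT vehicle replicate 1 lay among them. Scap rose in WT cells by 0.62 ± 0.15 (limma adjusted p = 0.027; 0.43 ± 0.18 and 0.28 with 12 arrays) and the GR-C3 change was 0.1 ± 0.14, with a difference of -0.52 ± 0.21 that did not pass (limma adjusted p = 0.29). It was lower in GR-C3 cells under Dex by 0.54 (limma adjusted p = 0.012). With slide as a term neither Scap result passed (0.35 ± 0.17 and -0.67 ± 0.21, limma adjusted p = 0.37 and 0.073), and the WT rise also missed the threshold without WT Dex replicate 3, WT vehicle replicate 2 or WT vehicle replicate 3, with changes of about the same size (0.64, 0.66 and 0.58; limma adjusted p = 0.0578, 0.129 and 0.181).

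Insig1 and Insig2 hold SCAP in the endoplasmic reticulum, and the first is itself an SREBP target. Insig1 was -1.33, -1.07 and -1.07 on the WT vehicle arrays and -1.39, -1.64 and -1.46 on the WT Dex arrays, and -1.52, -1.48 and -1.65 on the GR-C3 vehicle arrays and -1.33, -1.36 and -1.27 on the GR-C3 Dex arrays. On the chosen probe the Dex arrays were the lower ones in WT cells and the higher ones in GR-C3 cells. The groups did not overlap in either genotype. The change was -0.43 ± 0.1 in WT cells (limma adjusted p = 0.022; -0.34 ± 0.11 and 0.19 with 12 arrays) and 0.23 ± 0.09 in GR-C3 cells (limma adjusted p = 0.23). The difference of these changes, 0.66 ± 0.14, fell just short of the threshold (limma adjusted p = 0.056); it passed without WT Dex replicate 1 (0.71, limma adjusted p = 0.0222). Under vehicle Insig1 was lower in GR-C3 cells (-0.48 ± 0.1, limma adjusted p = 0.0067), and under Dex the genotypes differed by 0.17 ± 0.09 (limma adjusted p = 0.15). With slide as a term the WT change was -0.32 ± 0.11 and the vehicle difference -0.26 ± 0.15, with limma adjusted p = 0.20 and 0.34. With WT vehicle replicate 2 or 3 also left out, which leaves 1 WT vehicle array, the values hardly moved (-0.43 and -0.43 for the WT change, -0.48 and -0.48 for the vehicle difference) but missed the threshold (limma adjusted p = 0.142, 0.147, 0.053 and 0.0571). A second Insig1 probe of the same record overlapped between vehicle and Dex in GR-C3 cells. It read -2.03, -1.97 and -2.11 on the GR-C3 vehicle arrays and -2.02, -2.03 and -2.07 on the GR-C3 Dex arrays. The same probe read -2.12, -1.91 and -1.96 on the WT vehicle arrays and -2.35, -2.13 and -2.1 on the WT Dex arrays. With all 12 arrays the vehicle groups of the genotypes overlapped there. Insig2 was 1.72, 2.14 and 2.1 on the WT vehicle arrays and 1.71, 1.95 and 1.57 on the WT Dex arrays, and 2.07, 2.15 and 2.2 on the GR-C3 vehicle arrays and 1.71, 1.79 and 1.67 on the GR-C3 Dex arrays. Except for WT vehicle replicate 1, Dex arrays lay below vehicle arrays in both genotypes. The changes were -0.38 ± 0.11 in WT and -0.41 ± 0.1 in GR-C3 cells and missed the threshold (limma adjusted p = 0.058 and 0.060), with a difference of -0.03 ± 0.15. A second Insig2 probe, for another transcript record, gave -0.53 ± 0.10 in WT cells and passed (limma adjusted p = 0.0092, over all probes). On the GR-C3 arrays that probe read -0.14, -0.16 and -0.25 under vehicle and -0.38, -0.3 and -0.31 under Dex. Its fall was thus smaller in GR-C3 than in WT cells, unlike that of the chosen probe.

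Under Dex, most synthesis enzymes were higher in GR-C3 than in WT cells, together with Stard4, Scarb1 and Ch25h, while Nr1h3, Mylip, Abca1, Tm7sf2, Scap, Npc1 and Npc2 were lower. With 11 arrays, 23 of the 34 (16 higher and 7 lower in GR-C3 cells) passed under Dex, where 40.7% of all genes passed (24.6% higher, 16.1% lower). Under vehicle 7 of the 34 (2 higher, 5 lower) passed, where 27.3% of all genes passed (16.2% higher, 11.1% lower). Of the 19 synthesis enzymes, 13 were higher and 1 lower under Dex, and 1 was higher and 1 lower under vehicle. With all 12 arrays the counts were 19 (12 higher, 7 lower) under Dex and 8 (3 higher, 5 lower) under vehicle, where 29.6% (17.5% higher, 12.1% lower) and 24.8% (14.6% higher, 10.2% lower) of all genes passed. The median difference over the 34 was 0.16 under Dex and -0.01 under vehicle, and over the 19 enzymes 0.47 and 0.09, beside 0.13 and 0.12 over all genes; the values are not shifted by the latter. With 12 arrays Ch25h, Mvd, Cyp51 and Scarb1 dropped out under Dex (limma adjusted p = 0.052, 0.057, 0.079 and 0.063), and Fdft1 came in under vehicle. No slide held both genotypes under the same treatment, so with slide as a term these differences are the indirect ones described above. With slide as a term 8 of the 34 passed under Dex, 4 higher (Ch25h, Stard4, Hmgcs1 and Hsd17b7) and 4 lower (Nr1h3, Mylip, Tm7sf2 and Abca1), where 15.5% of all genes passed; under vehicle 2 passed, Nr1h3 and Tm7sf2, both lower, where 7.82% passed. The mean level of the epithelial markers (Epcam, Cdh1, Krt8 and Krt18, of which 2 were above background on all arrays and Cdh1 on none) also moved with genotype, from -5.59 to -4.91 on WT arrays and from -4.52 to -3.79 on GR-C3 arrays. So did the mean of the endothelial markers (Pecam1, Cdh5 and Kdr), from -6.6 to -6.06 and from -5.85 to -5.38. Of these Kdr was above background on all arrays and Cdh5 on none. The mean of the 7 fibroblast markers was 5.98 to 6.15 on the WT Dex arrays and 5.76 to 5.9 on all others. The part of these markers in the differences was not tested. In cells grown as a bulk culture, fewer cells of a type and less RNA per cell cannot be told apart.

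**Figure D3:**
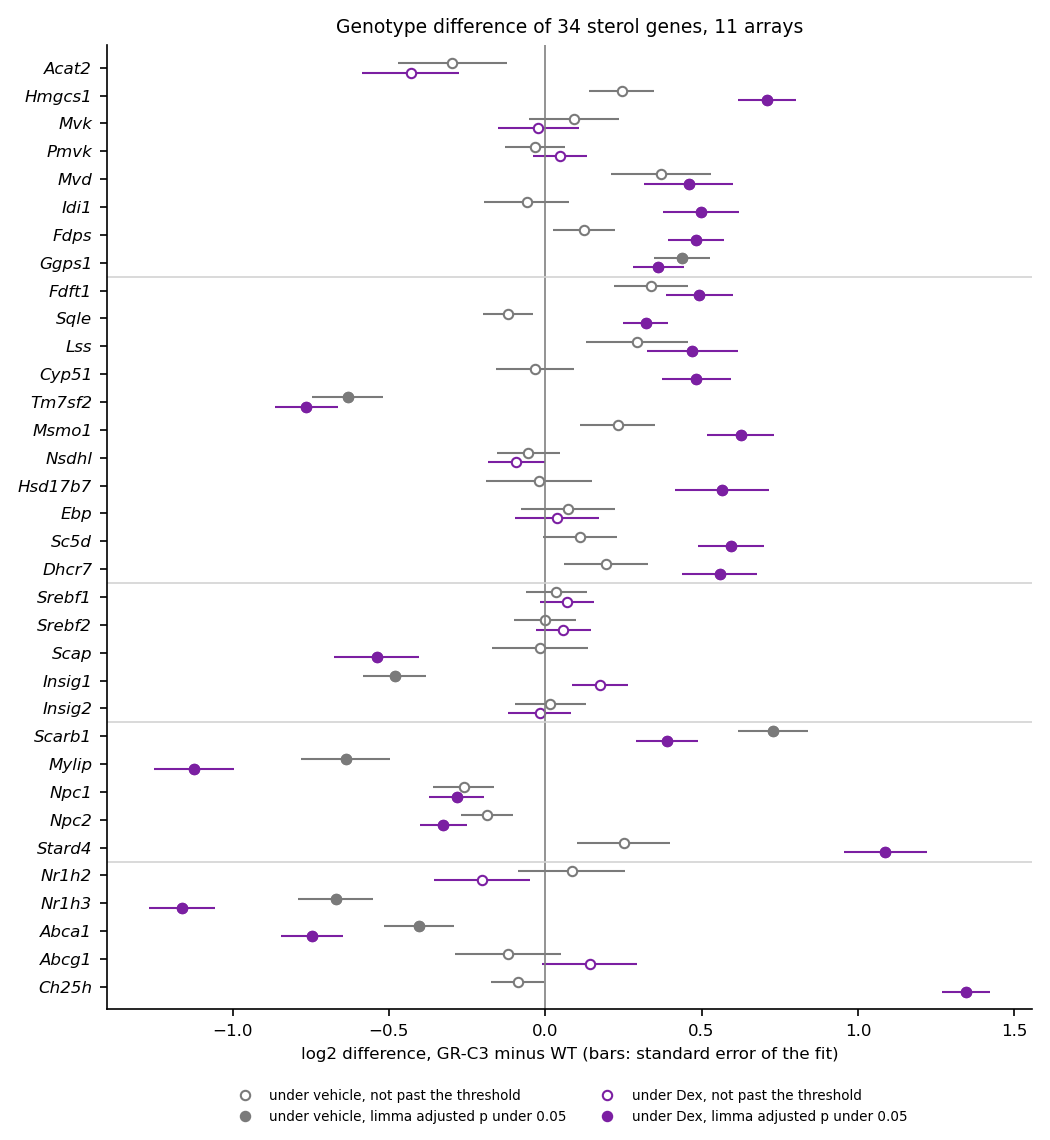
Log2 difference between GR-C3 and WT cells (x axis) for the 34 sterol genes (y axis, grouped by role) under vehicle (grey) and under Dex (purple), 11 arrays, with standard errors of the fit; filled circles passed a limma adjusted p of 0.05. Most enzymes in the upper 2 blocks lie right of 0 under Dex, with 13 filled on that side, and 1 filled under vehicle.

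Of the mevalonate enzymes, 5 of 8 were higher in GR-C3 cells under Dex with 11 arrays and 4 with 12, where 24.6% and 17.5% of all genes were higher. Hmgcs1, the synthase that joins acetoacetyl-CoA with acetyl-CoA, was 4.09, 4.29 and 4.16 on the WT vehicle arrays and 3.89, 3.98 and 3.74 on the WT Dex arrays, and 4.5, 4.55 and 4.35 on the GR-C3 vehicle arrays and 4.59, 4.62 and 4.52 on the GR-C3 Dex arrays. On the chosen probe all GR-C3 arrays lay above all WT arrays, and the WT Dex arrays were the lowest. The Dex change was -0.36 ± 0.1 in WT cells and 0.11 ± 0.09 in GR-C3 cells (limma adjusted p = 0.053 and 0.56). The difference under Dex was 0.71 ± 0.09 (limma adjusted p = 0.00030), and 0.9 ± 0.16 with slide as a term (0.012). A second Hmgcs1 probe of the same record read -2.88, -1.76 and -1.82 on the WT vehicle arrays and -2.05, -3.13 and -2.6 on the WT Dex arrays. It read -2.59, -2.45 and -2.38 on the GR-C3 vehicle arrays and -2.04, -2.2 and -2.23 on the GR-C3 Dex arrays. There the genotypes overlapped under Dex, and WT vehicle replicates 2 and 3 lay above all GR-C3 arrays. On a probe for another record the GR-C3 Dex arrays lay above the WT Dex arrays. Idi1, which isomerises isopentenyl pyrophosphate, was 3.58, 4.22 and 4.1 on the WT vehicle arrays and 3.87, 3.68 and 3.42 on the WT Dex arrays, and 4.1, 4.09 and 4.1 on the GR-C3 vehicle arrays and 4.32, 4.06 and 4.09 on the GR-C3 Dex arrays. On the chosen probe the WT Dex arrays and WT vehicle replicate 1 lay below all others. Idi1 fell in WT cells by 0.5 (-0.5 ± 0.14, limma adjusted p = 0.040; -0.31 ± 0.17 and 0.38 with 12 arrays), against 0.06 ± 0.12 in GR-C3 cells, and the difference of 0.56 ± 0.18 did not pass (limma adjusted p = 0.20). The fall lost its call in 9 of the 11 fits that left out 1 further array, at changes from -0.56 to -0.38 (limma adjusted p up to 0.247, without WT vehicle replicate 2) and with slide as a term (-0.28 ± 0.16, 0.45).

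Fdps, which makes farnesyl pyrophosphate, was 4.55, 4.61 and 4.5 on the WT vehicle arrays and 4.44, 4.44 and 4.21 on the WT Dex arrays, and 4.65, 4.74 and 4.66 on the GR-C3 vehicle arrays and 4.79, 4.84 and 4.91 on the GR-C3 Dex arrays. Mvd, the decarboxylase before Idi1, was 1.46, 1.15 and 0.98 on the WT vehicle arrays and 0.86, 1.44 and 1.26 on the WT Dex arrays, and 1.49, 1.53 and 1.29 on the GR-C3 vehicle arrays and 1.54, 1.65 and 1.74 on the GR-C3 Dex arrays. Ggps1, which diverts farnesyl pyrophosphate to geranylgeranyl pyrophosphate, was 0.08, 0.35 and 0.34 on the WT vehicle arrays and 0.21, 0.35 and 0.13 on the WT Dex arrays, and 0.76, 0.76 and 0.83 on the GR-C3 vehicle arrays and 0.64, 0.59 and 0.54 on the GR-C3 Dex arrays. For all 3 genes every GR-C3 Dex array lay above every WT Dex array. Under Dex the differences were 0.48 ± 0.09 for Fdps, 0.46 ± 0.14 for Mvd, 0.36 ± 0.08 for Ggps1 and 0.5 ± 0.12 for Idi1 (limma adjusted p = 0.0022, 0.029, 0.0062 and 0.0094). Ggps1 was also higher under vehicle (0.44 ± 0.09, limma adjusted p = 0.0062), a call lost without WT vehicle replicate 2 or 3 at differences of 0.44 and 0.43 (0.0506 and 0.0577). With slide as a term none of these 5 differences passed (limma adjusted p = 0.058, 0.084, 0.25 and 0.082 under Dex and 0.18 under vehicle). The other mevalonate genes, Acat2, Mvk and Pmvk, passed in no comparison; under Dex their genotype differences were -0.43, -0.02 and 0.05.

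From squalene on, 8 of 11 enzymes were higher in GR-C3 cells under Dex with 11 arrays and 7 with 12, beside the same 24.6% and 17.5% of all genes, and Tm7sf2 was lower with both. Fdft1 (squalene synthase) was 2.25, 2.47 and 2.27 on the WT vehicle arrays and 2.28, 2.59 and 2.56 on the WT Dex arrays, and 2.79, 2.63 and 2.7 on the GR-C3 vehicle arrays and 2.88, 2.99 and 3.03 on the GR-C3 Dex arrays. Sqle (squalene epoxidase) was 3.24, 3.28 and 3.23 on the WT vehicle arrays and 2.95, 3.01 and 3.01 on the WT Dex arrays, and 3.16, 3.16 and 3.1 on the GR-C3 vehicle arrays and 3.25, 3.34 and 3.36 on the GR-C3 Dex arrays. Lss (lanosterol synthase) was 0.12, 0.32 and 0.39 on the WT vehicle arrays and 0.34, 0.66 and 0.53 on the WT Dex arrays, and 0.83, 0.66 and 0.46 on the GR-C3 vehicle arrays and 0.72, 1.0 and 1.21 on the GR-C3 Dex arrays. In each of the 3, the GR-C3 Dex arrays were above the WT Dex arrays, and Sqle had its lowest values on the WT Dex arrays. The differences under Dex were 0.49 ± 0.11, 0.32 ± 0.07 and 0.47 ± 0.15 (limma adjusted p = 0.0053, 0.0063 and 0.028). Fdft1 was higher under vehicle with 12 arrays (0.38 ± 0.11, limma adjusted p = 0.033) and missed the threshold with 11 (0.34 ± 0.12, 0.060).

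The enzymes that turn lanosterol into cholesterol were also mostly higher in GR-C3 cells under Dex. Cyp51, the lanosterol demethylase, was 0.8, 1.55 and 1.58 on the WT vehicle arrays and 1.48, 1.27 and 1.39 on the WT Dex arrays, and 1.69, 1.4 and 1.51 on the GR-C3 vehicle arrays and 1.69, 1.9 and 2.0 on the GR-C3 Dex arrays. Msmo1, the C4-methylsterol oxidase, was 4.44, 5.29 and 5.13 on the WT vehicle arrays and 4.82, 5.13 and 4.73 on the WT Dex arrays, and 5.44, 5.49 and 5.39 on the GR-C3 vehicle arrays and 5.52, 5.53 and 5.49 on the GR-C3 Dex arrays. Hsd17b7, a ketosterol reductase, was 0.65, 1.14 and 1.03 on the WT vehicle arrays and 0.79, 0.94 and 0.55 on the WT Dex arrays, and 1.18, 1.24 and 0.77 on the GR-C3 vehicle arrays and 1.49, 1.35 and 1.14 on the GR-C3 Dex arrays. In these genes too the GR-C3 Dex arrays lay above the WT Dex arrays, and WT vehicle replicate 1 was the lowest array for Cyp51 and Msmo1. Sc5d, the desaturase of the next-to-last steps, was 2.64, 3.08 and 2.97 on the WT vehicle arrays and 2.74, 2.82 and 2.47 on the WT Dex arrays, and 3.06, 3.23 and 3.12 on the GR-C3 vehicle arrays and 3.37, 3.21 and 3.23 on the GR-C3 Dex arrays. Dhcr7, the last reductase of one branch, was 2.03, 2.03 and 1.88 on the WT vehicle arrays and 1.37, 1.87 and 1.53 on the WT Dex arrays, and 2.11, 2.23 and 2.11 on the GR-C3 vehicle arrays and 2.16, 2.16 and 2.13 on the GR-C3 Dex arrays. Both had their lowest values in WT Dex cells, apart from WT vehicle replicate 1 for Sc5d. Under Dex the genotype differences were 0.48 ± 0.11 for Cyp51, 0.63 ± 0.11 for Msmo1, 0.57 ± 0.15 for Hsd17b7, 0.59 ± 0.11 for Sc5d and 0.56 ± 0.12 for Dhcr7, with limma adjusted p = 0.0070, 0.0015, 0.015, 0.0018 and 0.0051.

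With slide as a term, of the enzymes from squalene on only Hsd17b7 stayed past the threshold on the higher side (1.02 ± 0.24, limma adjusted p = 0.030); the other 7 gave differences from 0.36 ± 0.12 for Sqle to 0.67 ± 0.24 for Lss, with limma adjusted p from 0.069 to 0.15. Leaving out 1 array took the call from Hsd17b7 (GR-C3 Dex replicate 1 or WT Dex replicate 3), Lss and Mvd (each of GR-C3 Dex replicates 2 and 3 and WT Dex replicates 1 and 3), with limma adjusted p from 0.052 to 0.102. Tm7sf2, a sterol reductase that acts after Cyp51, went the other way: it was 2.89, 2.21 and 2.13 on the WT vehicle arrays and 2.08, 2.32 and 2.09 on the WT Dex arrays, and 1.41, 1.6 and 1.61 on the GR-C3 vehicle arrays and 1.51, 1.37 and 1.32 on the GR-C3 Dex arrays. All GR-C3 arrays lay below all WT arrays. The difference was -0.63 ± 0.11 under vehicle and -0.76 ± 0.1 under Dex (limma adjusted p = 0.0028 and 0.00031), and passed with slide as a term (-0.79 ± 0.19 and -0.91 ± 0.19, 0.049 and 0.018). Nsdhl and Ebp passed in none of the 5 comparisons, with values on 11 arrays from -0.09 to -0.02 and from -0.03 to 0.07.

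**Figure D4:**
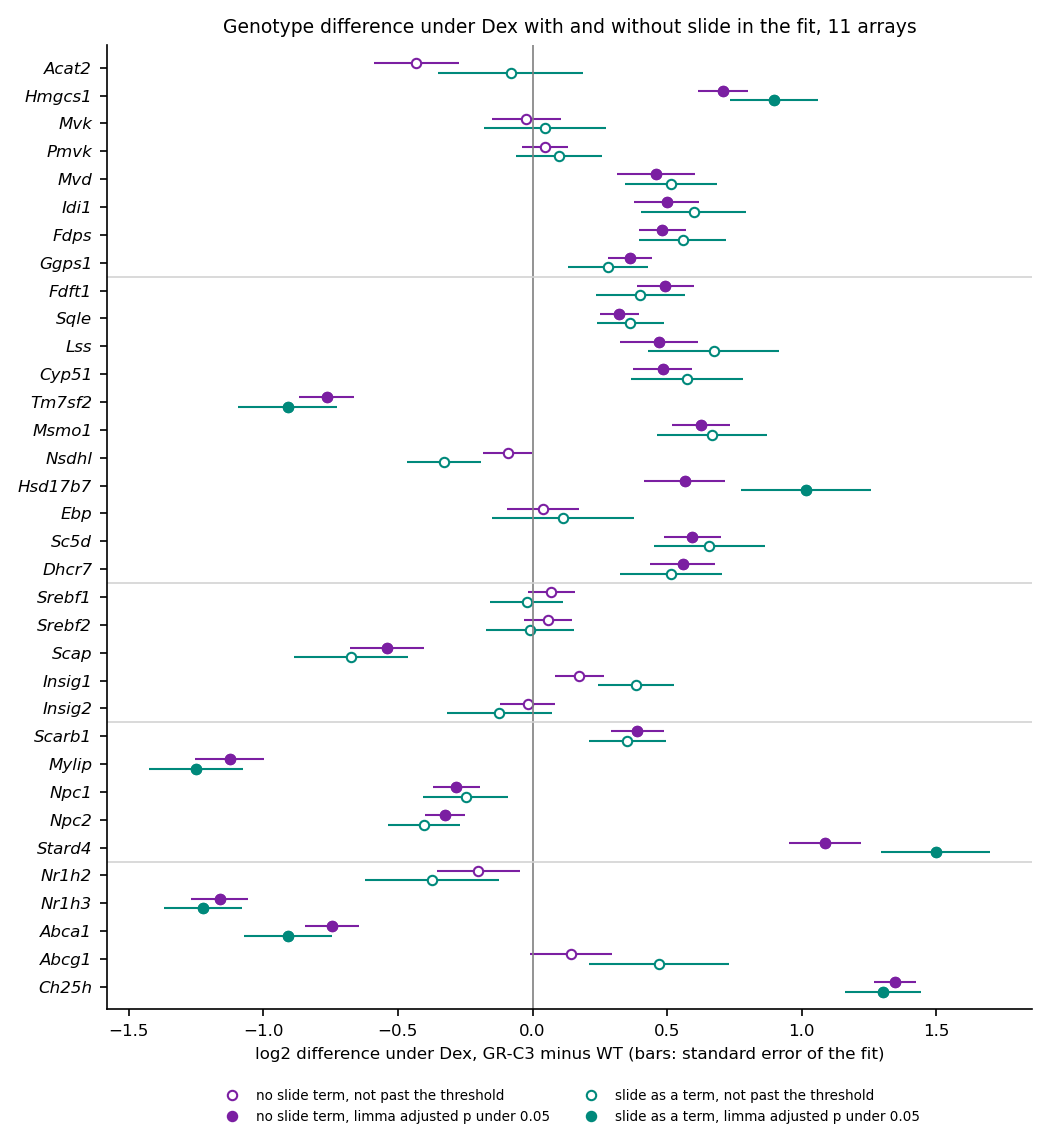
Log2 difference between GR-C3 and WT cells under Dex (x axis) for the 34 genes (y axis) from the fit without a slide term (purple) and with slide as a term (green), 11 arrays, with standard errors; filled circles passed a limma adjusted p of 0.05. The fit with slide has wider bars and 8 filled circles against 23.

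The enzymes' Dex changes were small in each genotype taken alone. With 11 arrays 9 of the 19 had a negative value in WT and a positive one in GR-C3 cells, 1 the reverse, 6 were positive and 3 negative in both, and 10, 1, 5 and 3 with all 12 arrays. The difference of the changes passed for none of the 19, from -0.13 for Acat2 to 0.59 for Hsd17b7, with Sqle closest to the threshold (0.44 ± 0.11, limma adjusted p = 0.099). The mean level of the 19 enzymes was 2.16, 2.31 and 2.21 on the WT vehicle arrays and 2.12, 2.29 and 2.09 on the WT Dex arrays. On the GR-C3 arrays it was 2.35, 2.37 and 2.27 under vehicle and 2.43, 2.44 and 2.48 under Dex. The GR-C3 Dex arrays were the highest of the 4 groups and the WT groups overlapped; since the genes were chosen with results known, this mean carries no test.

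**Figure D5:**
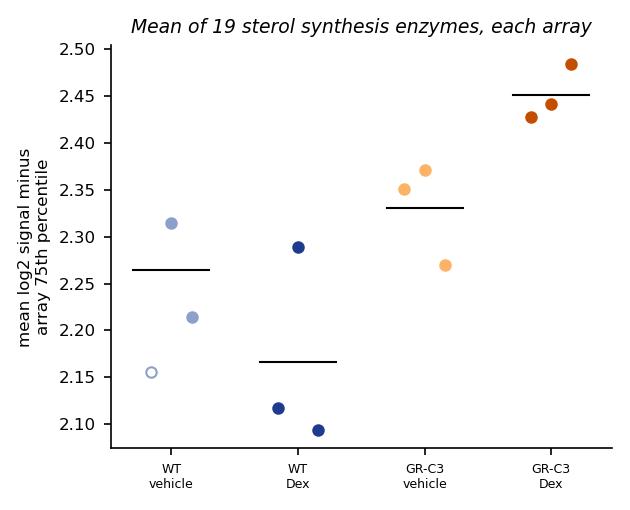
Mean level of the 19 synthesis enzymes on each array (y axis, log2 signal minus the array's 75th percentile) by group (x axis); lines are group means without the open circle, the array labelled WT vehicle replicate 1. The 3 GR-C3 Dex arrays lie at 2.43 to 2.48, above the other 9.

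All 5 genes of uptake and intracellular transport differed between genotypes under Dex with 11 arrays, where 40.7% of all genes did. With 12 arrays 4 of them did (29.6% of all genes), without Scarb1, and with slide as a term 2, Stard4 and Mylip (15.5% of all genes). Stard4, a carrier of cholesterol between membranes and a known SREBP target, was -0.61, -0.07 and -0.21 on the WT vehicle arrays and -0.56, -0.44 and -0.73 on the WT Dex arrays, and 0.22, 0.27 and -0.15 on the GR-C3 vehicle arrays and 0.64, 0.52 and 0.37 on the GR-C3 Dex arrays. The GR-C3 Dex arrays were the highest and the WT Dex arrays, with WT vehicle replicate 1, the lowest. Its Dex change was -0.44 ± 0.15 in WT and 0.4 ± 0.13 in GR-C3 cells, and the difference of 0.84 ± 0.2 did not pass (limma adjusted p = 0.092). Under Dex the genotypes differed by 1.09 ± 0.13 (limma adjusted p = 0.00019), a 2.13-fold higher level in GR-C3 cells, and by 1.5 ± 0.2 with slide as a term (0.0038). The 3 Stard4 probes gave 0.92, 1.09 and 1.04 under Dex. Under vehicle the chosen probe did not pass. On the other probes the GR-C3 vehicle arrays read -1.6, -1.45 and -1.57, and -1.64, -1.55 and -1.6. All lay above the WT vehicle arrays, at -2.23, -1.98 and -1.85, and -2.02, -2.05 and -2.01. With the mean of probes Stard4 passed under vehicle with 11 and 12 arrays, where 26.3% and 23.2% of all genes passed. Stard4 and Npc1 lie on chromosome 18, as does the glucocorticoid receptor gene that carries the knockin, and no sequence of this chromosome is shown. The part of this position in their genotype differences was not tested.

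Mylip marks lipoprotein receptors for degradation and is an LXR target. It was 1.64, 1.07 and 1.22 on the WT vehicle arrays and 1.6, 1.19 and 1.3 on the WT Dex arrays, and 0.37, 0.47 and 0.66 on the GR-C3 vehicle arrays and 0.34, 0.28 and 0.09 on the GR-C3 Dex arrays. All GR-C3 arrays lay below all WT arrays. The difference was -0.64 ± 0.14 under vehicle and -1.12 ± 0.13 under Dex (limma adjusted p = 0.0093 and 0.00012); with slide as a term these were -0.37 ± 0.18 and -1.25 ± 0.18 (0.28 and 0.0044), and the vehicle call was lost without WT vehicle replicate 3 (-0.57, 0.0912). Its Dex change was 0.22 ± 0.14 in WT and -0.27 ± 0.13 in GR-C3 cells, neither past the threshold.

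Scarb1, the receptor for HDL, was 1.23, 0.77 and 0.71 on the WT vehicle arrays and 0.75, 0.96 and 1.12 on the WT Dex arrays, and 1.5, 1.47 and 1.43 on the GR-C3 vehicle arrays and 1.27, 1.4 and 1.33 on the GR-C3 Dex arrays. It was higher on every GR-C3 array than on every WT array. The difference was 0.73 ± 0.11 under vehicle and 0.39 ± 0.1 under Dex (limma adjusted p = 0.0012 and 0.012), and 0.45 ± 0.15 and 0.35 ± 0.14 with slide as a term (0.11 and 0.14). Npc1 and Npc2 carry cholesterol out of lysosomes. Npc1 was -1.24, -1.28 and -1.3 on the WT vehicle arrays and -0.87, -1.1 and -0.89 on the WT Dex arrays, and -1.52, -1.58 and -1.55 on the GR-C3 vehicle arrays and -1.31, -1.26 and -1.14 on the GR-C3 Dex arrays. Npc2 was 5.45, 5.37 and 5.34 on the WT vehicle arrays and 5.55, 5.59 and 5.55 on the WT Dex arrays, and 5.21, 5.09 and 5.22 on the GR-C3 vehicle arrays and 5.28, 5.17 and 5.26 on the GR-C3 Dex arrays. Both were lower on the GR-C3 Dex than on the WT Dex arrays, and the Npc1 values were higher with Dex than with vehicle in both genotypes. The genotype differences under Dex were -0.28 ± 0.09 and -0.33 ± 0.07 (limma adjusted p = 0.027 and 0.0070), and neither passed with slide as a term (0.34 and 0.085). The Npc1 call was lost without GR-C3 Dex replicate 1 or 2 or WT Dex replicate 1 or 3 (limma adjusted p = 0.0842, 0.08, 0.0624 and 0.0699). With Dex, Npc1 changed by 0.34 ± 0.1 in WT and 0.31 ± 0.09 in GR-C3 cells, short of the threshold (limma adjusted p = 0.051 and 0.091).

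For 18 of the 34 genes more than 1 probe passed the filter, with 27 further probes, of which 23 had the sign of the chosen probe for the genotype difference under Dex and 19 for the Dex change in WT. For the genotype difference under vehicle only 16 had it with 11 arrays, the fewest of the comparisons. There, 4 further probes belonged to genes whose chosen probe passed in a fit over all probes. Of these 3 had its sign and 1 also passed. The exceptions included called genes. A second Sc5d probe, for another record, gave -0.86 ± 0.10 under Dex where the chosen one gave 0.59, so the direction for Sc5d depends on the probe. A Ggps1 probe for a predicted transcript gave -0.37 against 0.36, and an Lss probe for another record -0.24 against 0.47. By contrast, the 3 Cyp51 probes gave 0.39, 0.79 and 0.48 under Dex, and the second Mylip probe gave -1.44 beside -1.12. Both Idi1 probes fell with Dex in WT (-0.50 and -0.82) but differed elsewhere. The second Idi1 probe read -1.83, -0.15 and -0.16 on the WT vehicle arrays and -1.15, -0.84 and -0.84 on the GR-C3 vehicle arrays. It rose to -0.66, -0.59 and -0.56 on the GR-C3 Dex arrays. With the mean of probes and 11 arrays, Idi1 passed under vehicle and for the difference of Dex changes. There 26.3% and 1.01% of all genes passed. The scanner files place the Hmgcs1 probe on an unassigned contig and the Idi1 probe on chromosome 2 in mm7, while RefSeq lists both genes on chromosome 13 in GRCm38.p6, so the probes are named by their gene name alone.

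Of the other genes of the pathway, 1 of 15, 0 of 6 and 5 of 17 in 3 lists passed for Dex in WT cells with 11 arrays, where 12.2% of all genes passed. Of the 15 genes of the fatty acid arm of SREBP targets, Lpin1 rose with Dex in WT cells (0.74 ± 0.12, limma adjusted p = 0.0037) and none passed in GR-C3 cells. Under Dex 4 were higher and 4 lower in GR-C3 cells, with a median of 0.05, where 24.6% of all genes were higher and 16.1% lower. The lower ones included Lpin1, a phosphatidate phosphatase, at -1.31 ± 0.11, and Acss2, an acetyl-CoA synthetase, at -0.54 ± 0.08; Elovl6, a fatty acid elongase, was higher by 0.60 ± 0.11. Under vehicle 3 were higher and 4 lower, where 16.2% and 11.1% of all genes were. Of the 6 genes that process SREBP or degrade INSIG, 1 passed, Mbtps2, the site-2 protease, which was 0.64 ± 0.18 higher in GR-C3 cells under Dex with 11 arrays (limma adjusted p = 0.016) and missed the threshold with 12 (0.066). Of the 17 other genes of cholesterol storage, transport and LXR, 3 rose and 2 fell with Dex in WT cells and none passed in GR-C3 cells. Stard5, a sterol carrier, rose by 1.22 ± 0.11 in WT cells (limma adjusted p = 8.2e-05), and its change in GR-C3 cells was smaller by 0.94 (-0.94 ± 0.15, limma adjusted p = 0.017 for the difference). Between genotypes 4 of the 17 were higher and 5 lower under Dex (4 and 4 with 12 arrays), beside the shares of all genes above. The higher ones were led by Arl4c, an LXR target, at 2.07 ± 0.13, and Cyp7b1, an oxysterol hydroxylase, at 1.27 ± 0.11. Both were also higher under vehicle, at 1.78 ± 0.15 and 1.08 ± 0.12. With all 12 arrays none of these 38 genes passed for Dex in either genotype or for the difference.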

How the data were processed

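Per the file headers, the authors deposited 1 scanner file per array from Agilent Feature Extraction 9.5.3.1 (version 9.5 in the submitters' processing notes), with a processed signal intensity per spot that is already background-subtracted. The deposited value table held the same intensities on all 12 columns. Here log2 of the processed signal was taken and the array's 75th percentile (884 to 1821 intensity units) subtracted. Control and outlier spots were left out, and spots of a probe averaged. A probe was kept if well above background on every array of at least 1 group: 30934 of 41174 probes. Between 71.3% and 79.1% of spots were above background, which with 3 arrays a group limits precision.

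Genes were named through RefSeq by accession, symbol or synonym, and the sterol genes by the file's gene name; the kept probe with the highest mean stood for a gene. limma 3.58.1 in R 4.3.3 fitted 1 coefficient per group, with empirical Bayes moderation and Benjamini-Hochberg adjustment over 20836 genes, threshold 0.05; SE is the moderated standard error. The slide is the scanner files' slide number. The script recovered known changes on simulated data. The simulation held no slide effects and used larger changes than most of those here, so it does not bear on the smaller ones.

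The members and lists were chosen with earlier results of these data known. A member was named with its values if it passed in at least 1 of 5 comparisons with 11 or 12 arrays; the SREBP and LXR factors, Insig genes, Ch25h and Abca1 were named in any case, and of the pathway lists only genes that passed, up to 5 a list. Alternatives tried were quantile normalization, normexp background (offset 50), no filter on dim probes, the mean of a gene's probes, slide or replicate number as a block, fits of 1 genotype, and leaving out each array. Some genes of the pathway are not reported here.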

Additional observations from a re-analysis of the deposited data

Results flagged for a closer look

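The Dex change of Ch25h differed between the genotypes by the test of the difference itself: it was smaller in GR-C3 than in WT cells by 1.43 (log2; limma adjusted p = 0.00060, 11 arrays), with all 3 GR-C3 Dex arrays above all 3 WT Dex arrays. With all 12 arrays the same difference was 0.67 ± 0.67 (SE) and did not pass (limma adjusted p = 0.92).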

How the results depend on the processing

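The counts of the 34 genes past the threshold moved with the processing, and the cause was not tested. The share of all genes past it under the same setting stands in parentheses. Under Dex the genotype count was 23 (40.7%) with 11 arrays and 19 (29.6%) with 12. It was 8 (15.5%) and 8 (15.6%) with slide as a block. It was 4 (4.09%) and 1 (2.18%) with normexp on the raw background, where local backgrounds reach 65361. Under vehicle the count was 7 (27.3%) and 8 (24.8%). It was 2 (7.82%) and 2 (7.82%) with slide as a block, and 0 (1.4%) and 0 (1.81%) with normexp. For Dex in WT cells with 11 arrays it was 6 (12.2%). It was 12 (14%) with quantile normalization, 10 (12.2%) with the mean of a gene's probes and 3 (6.82%) without the filter on dim probes. It was 1 (0.816%) with normexp, 1 (4.89%) with slide as a block or slide 2 alone, and 1 (6.07%) with WT arrays alone. In GR-C3 cells it was 1 (3.47%). There it was 3 (3.32%) with GR-C3 arrays alone, 2 (4.98%) with quantile normalization and 0 (0.0288%) with normexp. For the difference of Dex changes with 11 arrays it was 1 (1.14%). It was 2 (1.74%) with quantile normalization, 2 (1.01%) with the mean of probes, 2 (1.11%) with normexp on repaired backgrounds and 0 (0%) with normexp. With all 12 arrays, slide as a block gave 1 (4.89%) for Dex in WT, 1 (1.52%) in GR-C3 cells and 1 (0.173%) for the difference, in place of 0. GR-C3 arrays alone are the same arrays in both sets. Quantile normalization gave 2 higher and 6 lower under vehicle with 12 arrays, in place of 3 and 5. Leaving out 1 array gave 1 to 10 (4.62% to 21.3%) for Dex in WT with 11 arrays and 0 to 6 (0% to 12.2%) with 12. In GR-C3 cells it gave 1 to 3 (1.46% to 5.55%) and 0 to 1 (0.0096% to 3.47%), and for the difference 1 to 4 (0.278% to 5.68%) and 0 to 1 (0% to 1.14%). Under vehicle it gave 3 to 9 (12.2% to 33%) and 4 to 9 (15.6% to 27.3%), and under Dex 19 to 24 (30.3% to 44.7%) and 10 to 23 (19.2% to 40.7%). With 11 arrays, leaving out a WT vehicle array leaves 1, assumed to vary like the other groups. Signs turned for Abcg1 (0.36 and 0.52 with 11 and 12 arrays), Insig1 (0.22 and 0.28) and Scap (-0.19 with 12) for Dex in WT under normexp. The sign of Sc5d under Dex turned with the mean of its probes (-0.13). Deviations from the group means correlated between same-number replicates at r from -0.215 to 0.214 (18 pairs, 4 over 0.1). Pairs of unlike number were not compared, so this does not show whether replicate numbers pair the samples. With the replicate block the count for the difference was 2 (1.32%) with 11 arrays, and the other counts stayed within 1.5 times. With 11 arrays, Ch25h in WT cells held under all 20 alternatives and the Stard4 genotype difference under Dex under all 18.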
